A study of Canis lupus familiaris with 34 samples.

Results

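The genes described here are the cytosolic aminoacyl-tRNA synthetases and a set of serine, asparagine, folate, stress and transport genes linked to the amino acid response of the transcription factor ATF4. They were taken from a list of 34 gene symbols, of which 19 were synthetases and 15 were the other genes, and were matched to probe sets through the platform annotation. The array carried 104 probe sets for 33 of the 34, and GARS1 was not matched to a probe set. A gene was measured where a probe set passed log2 5 on at least 3 arrays, which kept 30 of the 34 genes among 7849 measured genes in all. The measured genes were 18 synthetases and 12 of the others. SESN2, SLC7A5 and SLC3A2 did not pass. The SESN2 probe set was over log2 5 in 2 of 33 columns and reached 6.25, and that of SLC7A5 was over it in 0 columns and reached 4.35. The 3 SLC3A2 probe sets were over it in 0, 1 and 2 columns.

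Aminoacyl-tRNA synthetases join each amino acid to its transfer RNA before translation. When uncharged transfer RNA or unfolded protein builds up, kinases phosphorylate the initiation factor eIF2, bulk translation slows, and the ATF4 messenger RNA is translated more. ATF4 protein then activates genes for amino acid synthesis, amino acid import, transfer RNA charging and stress signalling, so that its activity is set largely by translation and not by its own transcript level. Proliferating tumour cells in culture use these enzymes to supply serine, glycine and asparagine.

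The samples were canine osteosarcoma, a malignant bone tumour of dogs, measured on 34 Affymetrix Canine_2 arrays from 31 dogs. Of these, 25 came from lines grown from primary tumours, 3 from lines grown from metastases and 6 from snap-frozen tissue of primary tumours. Cells were primary tumour cells or cultures kept frozen, the labels name no experimental treatment, and the sources used here give neither culture medium nor passage. The label of age at diagnosis ran from 2 to 11.19 in the dogs of the primary lines, from 2.39 to 6.31 in those of the metastatic lines and from 2.67 to 11.91 in those of the tissues, with no unit in the label. Both line arrays of dog 22 were averaged, so 24 primary lines from 24 dogs, 3 metastatic lines and 6 tissues were compared. Dogs 22 and 23 gave both a line and a tissue, so the groups are not wholly separate animals. Breed and sex differed between the groups. Rottweilers gave 10 primary and 2 metastatic lines and 0 tissues, and Golden Retrievers gave 7 primary lines and 3 tissues. The other tissues were 1 each of Belgian tervuren, Borzoi and Great Pyrenees, and the other metastatic line was from a Rhodesian Ridgeback. German Shepherd (also spelled German Shephard), Alaskan Malamute, Great Pyrenees, Mastiff and Saint Bernard gave the other primary lines, with breed unknown in 1. Labelled sex was male in 13 and female in 10 primary lines, with none given in 1. It was male in 2 and female in 1 of the metastatic lines, and male in 1 and female in 5 tissues. Where the labels give a treatment of the dog, it was most often SOC, an abbreviation they do not spell out. SOC stood in 11 primary lines, 1 metastatic line and 3 tissues. Other labels of primary lines were AMP in 3, PALL in 2 and ABX in 1. SOC marked with death before the 1st chemotherapy stood in 1, and with death before its end in 2. PALL also stood in 1 metastatic line. Labels of 4 primary lines, 1 metastatic line and 3 tissues gave no treatment. The part of breed, sex and treatment in the comparison with tissues was not tested. No label names a normal bone or normal osteoblast sample. All levels below are log2 of the deposited intensity, and levels of different genes are not compared because probe sets differ in brightness.

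The median linear intensity of a column ranged from 8.08 to 8.51 among primary lines, from 8.08 to 8.37 among metastatic lines, and from 8.28 to 8.67 among tissues. Sample titles carried 3 prefixes, treated here as possible batches. Primary lines 1 to 4 carried title prefix 1. The 3 metastatic lines and 19 arrays of primary lines carried title prefix 2. All 6 tissues carried title prefix 3, together with 2 arrays of primary lines. Primary line 4 stood apart from its label: the mean level of 5 endothelial markers was 10 in it against 2.50 to 3.79 in the other 23 primary lines, and its mean level of osteoblast markers, 5.46, was below their range of 6.02 to 7.92. Values without it are given below. Some lines of different dogs were very alike. Over all genes the correlation was 0.976 between primary lines 5 and 9, 0.975 between 17 and 24 and 0.974 between metastatic line 2 and primary line 8, against 0.911 between both arrays of dog 22 and a median of 0.872 over line pairs. The tissues held other cells. All 11 measured macrophage markers were lower in primary lines, with mean levels of 2.33 to 3.64 in the lines and 7.23 to 9.94 in the tissues, and 8 of the 11 stayed below log2 5 in every line. All 6 MHC class II and all 5 endothelial markers were also lower in primary lines, beside 9.06% of all genes called lower. The 8 macrophage markers named above entered the measured genes through the tissues. In the MHC class II, endothelial, adipocyte and osteoblast lists, 1 marker each also stayed below log2 5 in every primary line. Others passed it in few lines, such as LYZ of the macrophage list in 1 primary line. The counts of all marker lists in this paragraph are therefore a description only. Of other lists, 3 of 4 osteoclast and 3 of 4 adipocyte markers were called lower. By the same rule it was 0 of 2 skeletal muscle markers and 0 of 1 B and plasma cell marker. Of 7 measured osteoblast markers, 3 were called lower and 0 higher, and 0 had a difference above 0, with a median of -1.02. In such bulk samples fewer cells of a type and less RNA per cell cannot be told apart.

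Primary lines were first compared with tissues, the comparison that the design text of the series names. ASNS, PSAT1, PSPH, SHMT2, MTHFD2, DDIT3, TRIB3, CHAC1, CARS1 and WARS1 were higher in the lines, whereas ATF4, XBP1, PHGDH and SLC7A11 did not pass the test. A gene was called where limma's adjusted p was under 0.05 and the change at least 2-fold. By this rule 10 of the 30 genes were called, all higher in the lines, beside 14.6% of all 7849 genes in either direction and 5.57% upward. The called genes were 8 of the 12 amino acid and stress genes and 2 of the 18 synthetases. CHAC1, TRIB3 and SLC7A11 passed the limit of log2 5 through the lines alone, so counts that include them are a description only. Among genes over log2 5 in every primary line and every tissue, 6 of 9 amino acid and stress genes and 2 of 18 synthetases were called higher, beside 4.6% of 4519 such genes. Their median differences were 1.11 and 0.29, beside 0.00. A difference above 0 was found in 9 of 9 and 15 of 18, beside 50.1%. Over all 7849 genes the median was -0.05 and 46.7% were above 0.

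**Figure D1:**
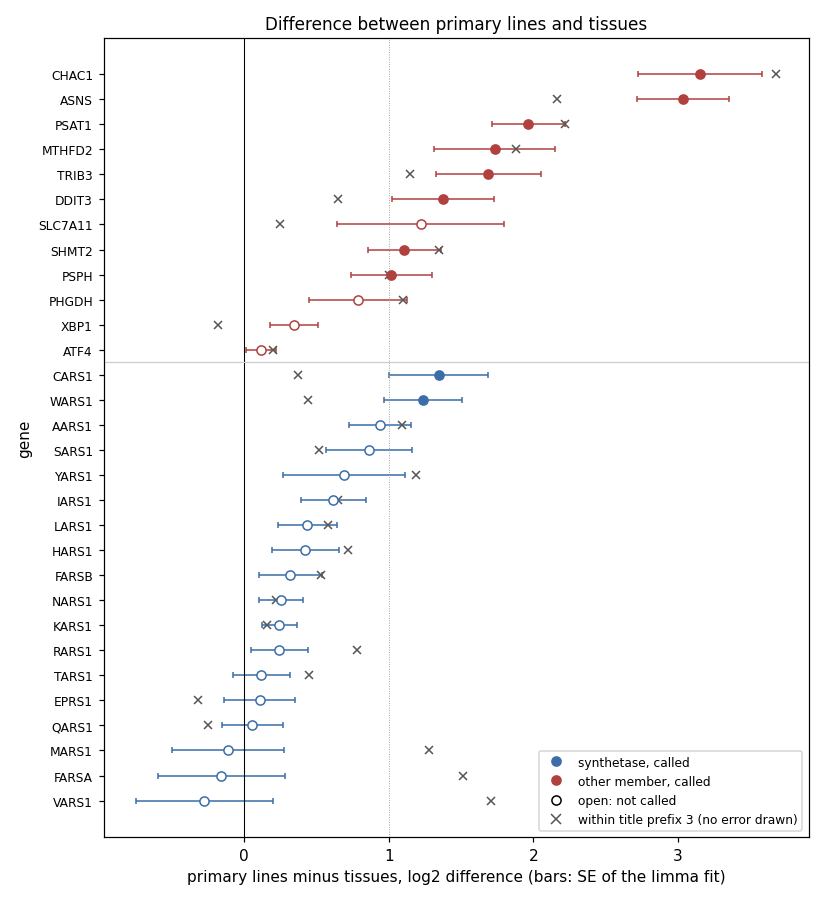
Difference in log2 intensity between 24 primary lines and 6 tissues for the 30 measured genes, with bars for the standard error of the limma fit. Filled points are the 10 called genes, the dotted line marks 2-fold, and crosses give the difference within title prefix 3 (2 lines and 6 tissues); CHAC1 and ASNS lie farthest to the right.

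ASNS makes asparagine from aspartate and is a standard reporter of the amino acid response. Its level was 10.71 at the lowest, 12.15 at the median and 13 at the highest in primary lines. The 6 tissues were at 8.38, 7.75, 10.58, 9.88, 10.14 and 7.72. The lowest line, primary line 19, lay just above the highest tissue, tissue 3, so the groups did not overlap. That line is the average of 2 arrays at 11.17 and 10.24, and the lower array lay below tissue 3. The means were 12.11 ± 0.54 (SD, n = 24) and 9.07 ± 1.28 (SD, n = 6), a difference of 3.03 (SE 0.32, 8.18-fold, limma adjusted p = 7.06e-09). The 3 ASNS probe sets gave differences from 3.03 to 4.42. Only 16 of all genes (0.204%) had every primary line above every tissue, and CHAC1 was the other one among the genes described here. With both arrays of dog 22 kept apart, ASNS would not be among them.

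CHAC1 encodes an enzyme that breaks down glutathione and is induced by ATF4 and its partner factors. It was at 4.75, 7.16 and 8.59 (lowest, median and highest) in primary lines. In the tissues it was at 3.67, 2.73, 3.58, 4.24, 4.02 and 4.35. The level passed log2 5 in 23 of 24 lines and in 0 of 6 tissues, where the transcript was not above the limit used for measured probe sets. CHAC1 entered the measured genes through the lines alone. The fitted difference was 3.15 (SE 0.43, limma adjusted p = 1.28e-06). Set against log2 5 in place of the tissue values, the mean of the lines was at least 3.77-fold higher. With 16 added to each intensity before log2, which damps low values, it was 2.22 (limma adjusted p = 1.39e-05).

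The enzymes of the serine pathway followed in order of the route from glycolysis. PHGDH, which catalyses the first step, had means of 11.58 ± 0.61 (SD, n = 24) in primary lines and 10.79 ± 1.25 (SD, n = 6) in tissues. That difference of 0.79 did not pass (limma adjusted p = 0.0916), and 6 of 24 lines lay above all tissues. PSAT1, the aminotransferase of the next step, was at 11.23, 12.75 and 13.10 (lowest, median and highest) in the lines. In the tissues it was at 10.54, 8.97, 11.07, 11.57, 10.52 and 11.53. Primary line 24 was the single line within the tissue range, and the other 23 lay above it. PSAT1 was higher by 1.97 (SE 0.25, limma adjusted p = 3.66e-07), and its 3 probe sets gave 1.97 to 4.06. PSPH, the phosphatase that releases serine, was higher by 1.02 (SE 0.28, limma adjusted p = 0.00796). Its tissue values were 9.16, 8.64, 11.08, 10.23, 8.98 and 9.82, and the lines ran from 9.74 to 11.87. PSPH groups overlapped, with 4 of 24 lines above all tissues, and the change was close to the 2-fold limit. Leaving out tissue 1, 2 or 5, or the 4 lines of title prefix 1, took it below that limit.

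SHMT2 and MTHFD2 are the mitochondrial enzymes that pass a carbon unit from serine to folate and onward. SHMT2 ran from 9.33 through a median of 11.94 to 12.46 in the lines. Its tissue values were 10.49, 10.65, 11.33, 10.29, 10.58 and 10.87. All but 2 lines lay above the tissues, and the lowest line was primary line 4. The difference was 1.11 (SE 0.25, limma adjusted p = 0.0015), and 1.22 without primary line 4. MTHFD2 ran from 7.57 through 9.57 to 11.11 in the lines, against 7.6, 6.13, 8.97, 8.41, 6.80 and 8.59 in the tissues. The groups overlapped more than for SHMT2, with 16 of 24 lines above all tissues. MTHFD2 was higher by 1.73 (SE 0.42, limma adjusted p = 0.00271).

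Among the stress factors, ATF4 was nearly level. It lay between 12.36 and 13.25 in primary lines and was at 12.92, 12.77, 13.02, 12.90, 12.57 and 12.51 in the tissues. The difference was 0.11 (SE 0.10, limma adjusted p = 0.455). Across primary lines its SD was 0.159, beside a median SD of 0.671 over all genes, and 0.548% of genes had a lower SD. Other genes of high level had SDs of 0.202 (KARS1), 0.261 (XBP1) and 0.431 (PSAT1). The part of level in the low SD of ATF4 was not tested. XBP1, the factor of another arm of the unfolded protein response, differed by 0.34 (limma adjusted p = 0.134). Its transcript level does not show the splicing that activates it.

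DDIT3 encodes CHOP, a factor that acts with ATF4 under lasting stress. It ran from 7.04 through 8.46 to 9.86 in primary lines and was at 7.14, 6.87, 8.30, 7.28, 7.52 and 5.34 in tissues. Tissue 6 was the lowest sample, and 15 of 24 lines lay above all tissues. The difference was 1.37 (SE 0.35, limma adjusted p = 0.00477). TRIB3, a pseudokinase induced by ATF4 and CHOP, was dim throughout. It passed log2 5 in 6 of 24 primary lines and in 0 of 6 tissues, running from 3.19 through 4.48 to 6.16 in the lines and from 2.19 to 3.82 in the tissues. The fitted difference was 1.69 (SE 0.36, limma adjusted p = 0.000867). It was 0.79 with 16 added to each intensity, under the 2-fold limit, so the fold of this gene rests on values near background.

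**Figure D2:**
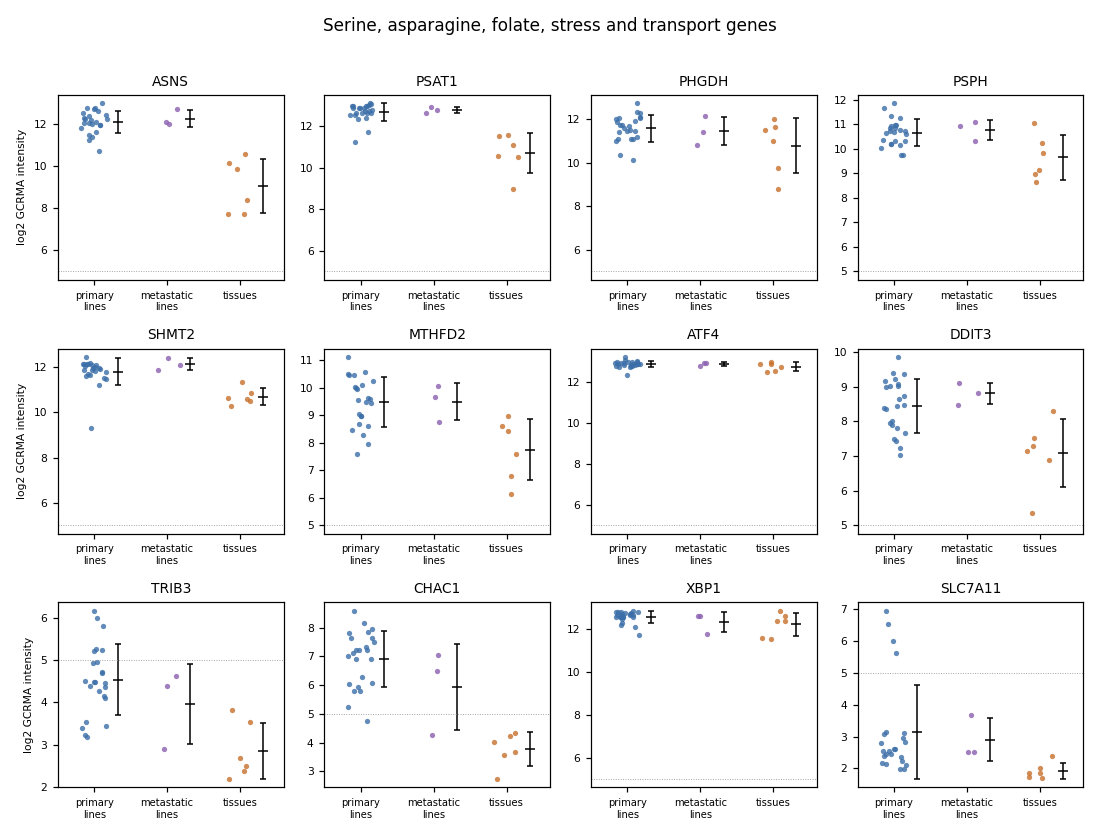
Levels of the 12 measured serine, asparagine, folate, stress and transport genes (log2 GCRMA intensity, a separate axis per gene) in 24 primary lines, 3 metastatic lines and 6 tissues. Points are lines or tissues, bars give mean and SD, and the dotted line is log2 5; ASNS (with both arrays of dog 22 averaged) and CHAC1 show no overlap between primary lines and tissues, and 4 primary lines stand apart in SLC7A11.

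Differences were smaller for most synthetases. CARS1, which charges cysteine, ran from 7.13 through 9.34 to 10.63 in primary lines and was at 8.19, 8.93, 8.59, 7.68, 7.5 and 7.42 in tissues. Its groups overlapped, with 21 of 24 lines above all tissues. The difference was 1.34 (SE 0.34, limma adjusted p = 0.00424). WARS1, which charges tryptophan and is also known as an interferon-induced gene, ran from 9.48 through 10.56 to 11.76 in the lines. Its tissue values were 9.57, 9.23, 9, 9.54, 9.62 and 9.20. The tissues were closely grouped, and 22 of 24 lines lay above all of them. WARS1 was higher by 1.23 (SE 0.27, limma adjusted p = 0.00101). Of 5 measured interferon markers, 3 were called lower and 0 higher in the lines, beside 9.06% of all genes called lower; their part in the WARS1 value was not tested.

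Without the 2-fold minimum, 9.84% of all genes had an upward adjusted p under 0.05, and 3 more synthetases joined. AARS1, for alanine, was higher by 0.94 (1.92-fold, limma adjusted p = 0.00168), with 21 of 24 lines above all tissues. SARS1, for serine, was higher by 0.87 (limma adjusted p = 0.0335). IARS1, for isoleucine, was higher by 0.62 (limma adjusted p = 0.0461). The other 13 synthetases did not pass. YARS1, for tyrosine, had the largest difference of these, 0.69 (limma adjusted p = 0.251). LARS1 and HARS1, for leucine and histidine, differed by 0.44 and 0.42. FARSB, NARS1, KARS1 and RARS1 differed by 0.24 to 0.32, and TARS1, EPRS1 and QARS1 by 0.06 to 0.12. FARSA, MARS1 and VARS1 had differences of -0.16, -0.11 and -0.27. The catalytic subunit FARSA and its partner FARSB, which form a single enzyme, thus differed in sign, and neither passed.

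**Figure D3:**
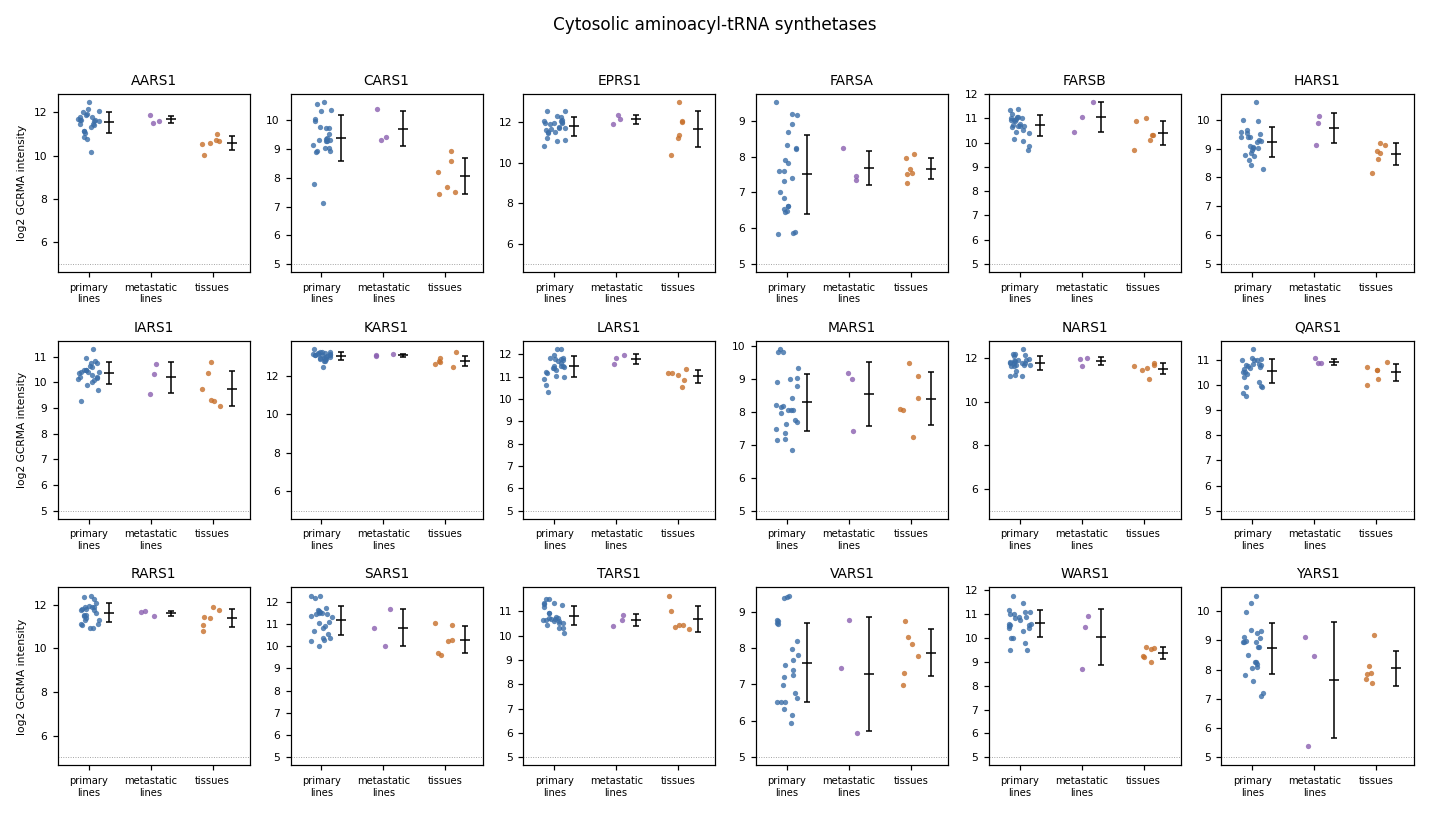
Levels of the 18 measured cytosolic synthetases (log2 GCRMA intensity, a separate axis per gene) in 24 primary lines, 3 metastatic lines and 6 tissues. Points are lines or tissues and bars give mean and SD; CARS1, WARS1 and AARS1 lie mostly above the tissues, whereas FARSA, MARS1 and VARS1 are widely spread in the lines and overlap the tissues.

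The choice of probe set moved the median difference of the synthetases more than that of the other genes. ATF4, DDIT3, TRIB3 and SLC7A11, and VARS1 among the synthetases, had 1 kept probe set each and could not move. Several kept probe sets existed for 25 of the 30 genes, and in 21 of these all had the same direction. The exceptions were EPRS1, FARSA, IARS1 and MARS1. Where the probe set with the widest interquartile range stood for each gene, the median difference of the synthetases was 1.09 in place of 0.29. That of the other genes was 1.53 in place of 1.30, with ASNS at 4.42 and PSAT1 at 4.06. In all, 14 genes were called beside 18.4% of all genes. The range was taken over lines and tissues together, so this rule favours probe sets with a wide gap between them. In that setting KARS1, NARS1, RARS1, SARS1 and TARS1 joined the called genes and PSPH left. RARS1, for arginine, had probe sets differing by 0.19, 0.24 and 2.36.

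All 6 tissues carry title prefix 3, so most lines and the tissues differ in prefix as well as in kind. Within title prefix 3, primary line 22 (the array of dog 22 that carries this prefix) and primary line 23 could be set against the 6 tissues. Of the 30 genes 2 were called there, beside 3.20% of all genes. CHAC1 differed by 3.68 (limma adjusted p = 0.00574) and FARSA by 1.51 (limma adjusted p = 0.0434), the latter against -0.16 over all lines. ASNS differed by 2.16, PSAT1 by 2.22, MTHFD2 by 1.88 and SHMT2 by 1.35 in the same direction, with limma adjusted p from 0.077 to 0.233 and only 2 lines. Others differed by less there than over all lines: DDIT3 by 0.65 (limma adjusted p = 0.615), TRIB3 by 1.15 (0.277), CARS1 by 0.37 (0.713) and WARS1 by 0.44 (0.471). PSPH differed by 1.00 (0.388). A fit that included title prefix kept both line arrays of dog 22 apart. It called 3 genes, beside 6.28% of all genes. These were ASNS (limma adjusted p = 0.0194), PSAT1 (0.00175) and CHAC1 (0.00227). The median difference of the amino acid and stress genes was 1.13 in both fits and that of the synthetases 0.55, beside 0.10 over all genes. Tissues carry title prefix 3 alone, so both fits take each difference from the same 2 lines. They differ only in the spread used for p, and equal differences are no second result.

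Other measures moved with the comparison. The difference between the 3′ and 5′ actin probe sets, a measure of RNA degradation and labelling length, was 1.42 ± 0.956 (SD, n = 24) in primary lines and 2.59 ± 1.15 (SD, n = 6) in tissues (exact permutation test, two-sided p = 0.0149). With it as a covariate, 10 genes were called again, all shared with the earlier 10, beside 13.1% of all genes. The smaller differences moved: SARS1 went from 0.87 to 0.43 (limma adjusted p = 0.261), IARS1 from 0.62 to 0.34 (0.283) and YARS1 from 0.69 to 0.03 (0.962). Genes higher at unadjusted p under 0.05 went from 18 to 11 of 30, and from 16.1% to 13.5% of all genes. Of 6 hypoxia genes, 3 were called higher in the lines, beside 5.57% of all genes. Of 5 proliferation genes 0 were called by limma and 2 were lower at unadjusted p under 0.05, beside 19.4% of all genes, with a median of -1.66. The part of hypoxia in the values above was not tested. Leaving out primary line 9, the close match of line 5, or primary line 4 left 10 called genes, beside 14.2% and 15.4% of all genes. Leaving out the 4 lines of title prefix 1 left 9, without PSPH, beside 14.1%.

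Dogs 22 and 23 allow a line to be set beside a tissue of the same animal. In dog 22, 27 of 30 genes were higher in the line, beside 54.9% of all genes. In dog 23, 18 of 30 were higher, beside 43.2%. The lines and tissues of both dogs were part of the fit that called the 10 genes, so their count here is a description only. Of the 10 called genes, 10 and 9 were higher in the line of the respective dog. The exception was MTHFD2, with 2.65 in dog 22 and -0.31 in dog 23. CHAC1 was higher by 3.63 and 3.47 and DDIT3 by 1.5 and 2.09. ASNS was higher by 0.57 in dog 22 and 3.55 in dog 23, the reverse order of PSAT1, with 2.45 and 0.83. Synthetases were mixed: 16 of 18 were higher in the line of dog 22 and 8 of 18 in that of dog 23, where MARS1 and VARS1 had differences of -1.94 and -1.78. No test is possible on each pair.

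The line of dog 22 had been measured on 2 arrays of different title prefix, which shows how far a line can vary between arrays. PSAT1 was at 13.18 and 12.76 and CHAC1 at 7.65 and 7.66. ASNS was at 11.17 and 10.24, with the tissue of that dog at 10.14. DDIT3 was at 10.07 and 7.96 and TRIB3 at 5.48 and 3.29. FARSA and VARS1 went the other way, at 7.29 and 9.18 and at 7.76 and 9.79. CHAC1 was thus nearly equal on both arrays, whereas DDIT3, TRIB3, FARSA and VARS1 moved by more than their differences between lines and tissues. So did EPRS1, FARSB, HARS1, KARS1, MARS1, QARS1, YARS1 and ATF4, with MARS1 at 8.54 and 9.52 and ATF4 at 12.76 and 13.03.

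Tissues also differed among themselves. Tissue 3 was the highest tissue for 8 of the 12 amino acid and stress genes, and tissue 2 was the lowest for 6 of them. Their mean deviation from the median of the primary lines was -0.82 in tissue 3 and -2.19 in tissue 2, with the other 4 tissues between. For synthetases the tissue deviations were smaller, from -0.64 to -0.16. The actin difference between 3′ and 5′ probe sets was 4.61 in tissue 3, the highest of all columns, and 2.72 in tissue 2. How often each tissue is highest or lowest over all genes was not counted, so the counts here are a description only.

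The surrounding pathway was counted from lists of other genes. The counts below stand beside 5.57% of all genes called higher and 9.06% called lower, a median of -0.05, and 16.1% higher and 19.4% lower at unadjusted p under 0.05. Of 16 measured ATF4 targets and amino acid genes outside the 34, 4 were called higher and 0 lower, with a median of 0.68. These were VLDLR, a lipoprotein receptor (1.93), PCK2, the mitochondrial PEP carboxykinase (1.84), SLC1A5, a glutamine transporter (1.52), and EIF4EBP1, a translation repressor (1.18). Of 9 mitochondrial synthetases, CARS2 was higher by 1.07 and VARS2 lower, with a difference of -1.99, and the median was -0.11. NARS2 had a difference of 0.75 (limma adjusted p = 0.0138), under the 2-fold limit. Of 6 other folate genes, 0 were called by limma, with 1 upward and 1 downward at unadjusted p under 0.05. AMT, MTHFD1L and MTHFD2L had differences of -1.25, 1.10 and 0.75.

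The kinases and factors upstream of ATF4 were counted in the same way. Of 13 genes for eIF2 kinases, eIF2 and eIF2B, 0 were called with the 2-fold minimum. At unadjusted p under 0.05, 3 were upward and 1 downward. GCN1, EIF2S2 and EIF2AK1 had differences of -0.73, 0.56 and -0.55. EIF2S2 passed without the 2-fold minimum (limma adjusted p = 0.0027), beside 9.84% of all genes upward. Of 14 chaperones and unfolded protein response genes, 1 was called, DNAJB9, higher by 1.23. SDF2L1 and DNAJC3 had differences of -0.83 and 0.69. HSPA5, the chaperone whose transcript is a usual reporter of unfolded protein, was named after its value was seen and had a difference of 0.08 (limma adjusted p = 0.594). Of the 3 measured proteins of the synthetase complex scaffold, 0 were called by limma and 0 passed an unadjusted p under 0.05. These were AIMP1, AIMP2 and EEF1E1, with differences of -0.16, -0.15 and -0.04.

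Metastatic lines were next compared with primary lines. Of the 30 genes, 0 were called at a limma adjusted p under 0.05 and 0 had an unadjusted p under 0.05, beside 0.0127% (1 gene) and 6.79% of all genes. The median difference was 0.11 over synthetases and 0.00 over the others, and its direction depended on the probe sets. It was -0.60 and -0.35 with those of widest interquartile range and -0.18 and -0.19 with the mean of all. ASNS was at 12.71, 11.99 and 12.09 and PSAT1 at 12.92, 12.75 and 12.65 in the 3 metastatic lines, all above the tissues. Beside that, 7.33% of all genes had all 3 metastatic lines above all tissues. The standard errors of these differences ran from 0.14 for ATF4 to 0.78 for SLC7A11, which limits what 3 metastatic lines can show.

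Metastatic line 1 stood apart in several of the genes. It was below all 24 primary lines for 6 of 30, namely SARS1, VARS1, WARS1, YARS1, TRIB3 and CHAC1, beside 10.7% of all genes. For FARSB, at 11.66, it was above all of them, beside 8.83% of all genes. Its YARS1 level was 5.40, against 8.48 and 9.10 in the other metastatic lines and 7.09 to 10.53 in primary lines. CHAC1 was at 4.25 in it, against 7.06 and 6.49. The actin difference between 3′ and 5′ probe sets was 3.95 in metastatic line 1 and 0.65 and 0.63 in the other metastatic lines. Metastatic lines 2 and 3 were outside the primary range for 0 genes, beside 0.713% and 1.81% of all genes below it and 1.17% and 2.45% above it. YARS1 and CHAC1 had the largest differences between metastatic and primary lines, -1.06 and -0.98, with limma adjusted p of 0.767 and 0.785. With the actin difference as a covariate 0 of 30 genes were called, and 0 passed upward at unadjusted p under 0.05, beside 3.91% of all genes.

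Levels varied unevenly across the 24 primary lines. SLC7A11 had the highest SD, 1.48, followed by FARSA (1.11), VARS1 (1.09) and CHAC1 (0.976). ATF4, KARS1, XBP1 and NARS1 had the lowest, from 0.159 to 0.318. Primary lines 1, 2, 3 and 7 were high in the synthetases as a group, with mean deviations from the line median of 0.46 to 0.59. Primary line 3 was above the median for 18 of 18 synthetases, and primary line 1 for 12 of 12 of the other genes. Primary lines 24, 20, 4 and 15 were lowest in the synthetases, with mean deviations of -0.61, -0.56, -0.43 and -0.39. Primary lines 24 and 13 were lowest in the other genes, at -0.92 and -0.83. The actin difference moved with these deviations: across the 24 lines r was -0.57 (Spearman's rho -0.52) with that of the synthetases and -0.44 (rho -0.44) with that of the other genes. Primary lines 15 and 20 had the highest actin differences of the primary lines, 4.04 and 3.23, and primary line 3 the lowest, -0.35. Primary lines 24, 13 and 4 were at 1.66, 1.74 and 0.88 and primary lines 1, 2 and 7 at 0.89, 0.93 and 1.34.

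**Figure D4:**
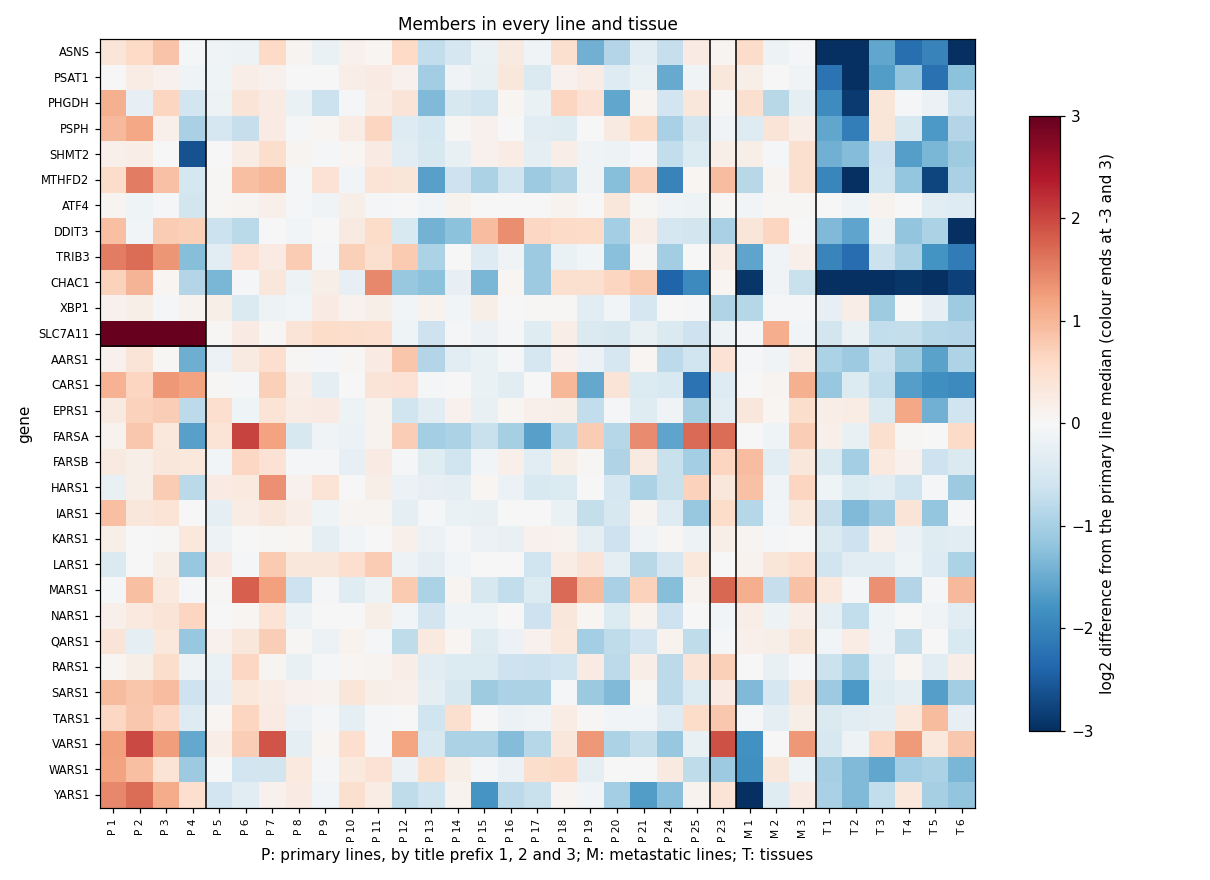
Difference of each gene from its median over the 24 primary lines (log2 units, colour) in all 33 columns, with the 12 amino acid, stress and transport genes above the 18 synthetases. Primary lines are ordered by title prefix, with the average of dog 22 shown as P 19; tissues are blue for ASNS, PSAT1 and CHAC1, lines P 1 to P 3 are mostly red, and SLC7A11 is dark red in P 1 to P 4 alone.

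SLC7A11, the cystine transporter that feeds glutathione synthesis, separated the lines by title prefix. Primary lines 1 to 4 lay between 5.62 and 6.94, and the other 20 primary lines between 1.97 and 3.14. Metastatic lines were at 2.52, 3.68 and 2.51 and tissues at 1.70 to 2.39. It was therefore over log2 5 in the 4 lines of title prefix 1 alone, and the dim levels elsewhere give only a rough size of the gap. YARS1 was the other gene of the 30 with all 4 of these lines, at 9.35 to 10.53, above the other 20, at 7.09 to 9.33. Beside these 2 of 30 genes, 1.64% of all genes had the 4 lines above the rest. SLC7A11 entered the measured genes through these 4 lines alone, so that count is a description only. SLC38A2, a neutral amino acid transporter outside the 34 genes, was named after its values were seen. It was at 9.93, 10.07, 8.17 and 9.51 in the 4 lines and at 1.87 to 3.37 in the other 20. SLC38A2 too passed log2 5 in these 4 lines and in 0 tissues. Title prefix and line cannot be told apart here, since no line of the 4 was measured under another prefix. Over all primary lines SLC7A11 differed from tissues by 1.22 (limma adjusted p = 0.127). Without the 4 lines the difference was 0.60 (limma adjusted p = 0.0211), under the 2-fold limit and among levels below log2 5.

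Correlations among the 30 genes across the 24 primary lines were set beside those of all gene pairs. The median Pearson correlation was 0.36 over 153 pairs of synthetases, 0.32 over 216 pairs of a synthetase with another of the genes, and 0.32 over 66 pairs of the latter. Pairs of these genes with all other genes had a median of 0.04, and all gene pairs 0.01. A correlation over 0.5 was found in 27.5%, 25% and 25.8% of the 3 kinds of pair and in 6.81% of all gene pairs. Within the 19 primary lines of title prefix 2 the medians were 0.31, 0.28 and 0.39, beside 0.01. With the actin difference removed from each gene, the medians over the 24 lines were 0.26, 0.30 and 0.30, beside 0.01 over a subset of all gene pairs. These correlations are descriptions across lines that share the array type and its processing.

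FARSA and RARS1 had the highest correlation, r = 0.86 (Spearman's rho 0.87, 24 lines), and 0.92 within the 19 lines of title prefix 2. SARS1 with TRIB3 had r = 0.84, and 0.74 within title prefix 2. MTHFD2 correlated with several: r was 0.83 with RARS1, 0.80 with FARSA and 0.79 with TRIB3. XBP1 ran the other way, with r = -0.58 against FARSA and -0.57 against MARS1. Spearman's rho was -0.39 for both, and without the 2 lines farthest from the median r was -0.55 and -0.31. SHMT2 with ATF4 had r = 0.74, which was 0.23 without the 2 lines farthest from the median and so rests on those lines.

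**Figure D5:**
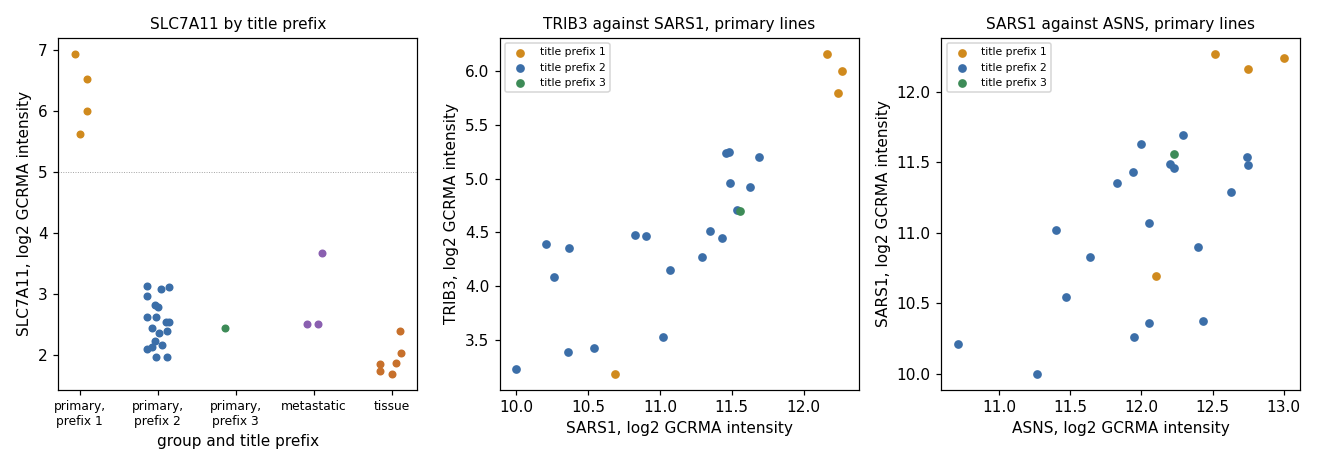
Left, SLC7A11 level (log2 GCRMA intensity) by group and title prefix, with the dotted line at log2 5; middle and right, TRIB3 against SARS1 and SARS1 against ASNS in the 24 primary lines, coloured by title prefix. The 4 lines of title prefix 1 lie above 5 in SLC7A11 and every other sample below it, and 3 of the 4 form the upper right corner of the other plots.

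Each gene was then regressed on ASNS across the 24 primary lines, to see which genes varied with this reporter. By limma 0 of 29 genes were called at an adjusted p under 0.05, beside 0.0255% of all genes (2 genes, TMEM123 and ANGPTL4, both falling with ASNS). The slope was above 0 in 28 of 29 genes, including 18 of 18 synthetases, beside 54.7% of all genes. An upward unadjusted p under 0.05 was found in 15 of 29, beside 5.66% of all genes. That count depended on the lines of title prefix 1. It was 7 of 29 without those 4 lines and 7 with title prefix as a covariate, beside 4.93% and 5.63% of all genes. Within the 19 lines of title prefix 2 it was 4, beside 5.22%. Slopes above 0 numbered 27, 29 and 26 of 29 in these 3 settings, beside 55%, 56% and 54% of all genes. With the actin difference as a covariate the count was 6 of 29, beside 1.66% of all genes, and the slope was above 0 in 29 of 29, beside 49.7%.

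SARS1 had the smallest p of the 29, with a slope of 0.82 log2 units per log2 unit of ASNS (SE 0.19, limma adjusted p = 0.156, rank 13 of 7848 genes). TRIB3 had a slope of 0.94 and rank 41, MTHFD2 0.93 and rank 113, and PHGDH 0.62 and rank 143. CARS1, YARS1 and AARS1 had slopes of 0.73, 0.79 and 0.47. ATF4 was the exception below 0, at -0.03. Without the lines of title prefix 1 the slope of SARS1 was 0.61 and that of TRIB3 0.63. SLC7A11 had a slope of 1.26 over all lines and 0.32 without these. The non-members with the smallest p were TMEM123 (-1.09), ANGPTL4 (-2.47), NDUFS3 (0.58), IFNGR1 (-1.30), CD83 (-1.76), DESI1 (1.06), LOC479795 (0.41), TRAP1 (0.76), WNK1 (-1.76) and CCM2 (0.63). With the probe sets of largest interquartile range 6 genes were called, beside 2.69% of all genes. These were AARS1, SARS1, TARS1, PSAT1, MTHFD2 and TRIB3. With the mean of all probe sets 3 were called (AARS1, SARS1 and TRIB3), beside 0.255%.

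The labels also give survival and breed. In 11 primary lines of dogs labelled SOC, levels were regressed on log2 of the survival label, which ran from 4.04 to 64.01 with no unit or record of censoring. By limma 0 of 30 genes were called, beside 0% of all genes. At an unadjusted p under 0.05, MARS1 (slope -0.43) and NARS1 (slope -0.21) passed, beside 4.89% of all genes. The slope was below 0 for all but 3 of the 30 genes, beside 51.5% of all genes. Within the 9 of these lines with title prefix 2, 8 of 30 slopes were above 0. Median slopes there were -0.06 for synthetases and -0.05 for the other genes, against -0.12 and -0.16 over the 11 lines. These genes correlate with each other across lines, so their signs are not separate observations. Between 10 Rottweiler and 7 Golden Retriever primary lines, with sex as a covariate, 0 of 30 genes were called by limma, beside 0.0255% of all genes. At an unadjusted p under 0.05 HARS1 was 0.62 higher in Rottweiler lines, and DDIT3 and CHAC1 had differences of -0.71 and -0.93, beside 10.9% of all genes.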

How the data were processed

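Expression was measured on Affymetrix Canine_2 arrays from column-extracted total RNA. The deposited intensity values, 1 per probe set and array, came from GCRMA as run by the authors, according to the submitters' processing notes. The GCRMA version and settings were not given in the sources used here. They were on a linear scale with a smallest value of 1.06, so the floor at 1 before log2 altered none. A single gene symbol was assigned to 29264 probe sets by the platform annotation. Probe sets over log2 5 on at least 3 arrays were kept, and the highest mean stood for each of 7849 genes.

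Linear models were fitted in R 4.3.3 with lmFit and eBayes of limma 3.58.1. Benjamini-Hochberg adjustment ran over all genes, and genes were called at an adjusted p under 0.05 and, for lines against tissues, at least 2-fold. The 3 groups shared 1 fit. The method was tested on simulated data. The number of arrays limits precision, since arrays have no read depth. Per the labels each line was from its own dog, except both arrays of dog 22, which were averaged. Where title prefix entered the comparison of primary lines with tissues or with metastatic lines, these arrays were kept apart.

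The genes and the lists were chosen with earlier results of these data known. All 34 genes could be named, with the 3 genes of largest difference from each pathway list and the 10 other genes with the smallest p in the slope on ASNS; called pathway genes, SLC38A2 and HSPA5 were added after their values were seen. The pairing of lines and tissues comes from the labels, which give dogs 22 and 23 both kinds; deviations from group means correlated at 0.157 and -0.175. Alternatives were other filters, normalization, pseudocount, probe set rules, batch, block and quality terms, and samples left out; leaving out the lines of title prefix 1, and the actin term for metastatic lines and for the slope on ASNS, were chosen after seeing the data. The macrophage, MHC class II, endothelial, osteoclast, adipocyte, skeletal muscle, plasma cell, osteoblast, interferon, hypoxia and proliferation markers are reported beside the results.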

Additional observations from a re-analysis of the deposited data

Results flagged for a closer look

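Of the 30 measured genes, checked for a tissue far from the other 5, 1 stood out. YARS1 was at 9.18 in tissue 4, with the next tissue at 8.11, a gap of 0.65 of the range over the 6 tissues. Chance alone marks about 1 in 20 such groups, so a single one among 30 is no pattern.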

How the results depend on the processing

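The 10 called genes of the comparison of primary lines with tissues became 3 with title prefix as a covariate and 2 within title prefix 3, where FARSA had a difference of 1.51 in place of -0.16; the cause was not tested. Leaving out each tissue in turn gave 9 to 12 called genes, beside 12.6% to 15% of all genes. The replicate block for dogs with a line and a tissue gave 10, beside 14.7%, and changed no call. Its estimated correlation was -0.0267. With the probe sets of largest interquartile range the synthetase median was 1.09 for lines against tissues and -0.60 for metastatic against primary lines (0.29 and 0.11 otherwise), and called genes in the slope on ASNS were 6, or 3 with the mean of probe sets, in place of 0. The actin difference was -0.31 within title prefix 3 (exact permutation test, two-sided p = 0.821), against -1.17 over all lines. CHAC1 was called under all 21 alternatives. Quantile normalization moved the median of all genes from -0.05 to -0.02 and left 10 called genes, beside 14.8% of all genes. Levels below log2 5 (TRIB3, SLC7A11, CHAC1 in tissues) carry no precise fold. TRIB3 and SLC7A11 could not be tested with a filter at log2 7.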
